A study of Mus musculus with 6 samples.

Results

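The genes described here move, store or regulate calcium, and all but Slc24a2 and Trpm7 belong to the calcium cycle of the heart muscle cell outlined below. They are Sln and Pln, which encode the small calcium pump inhibitors sarcolipin and phospholamban, the pump gene Atp2a2, the release channel gene Ryr2 with its partners Casq2, Trdn and Hrc, the exchanger genes Slc8a1 and Slc24a2, and the channel gene Trpm7. A probe set belongs to a member where the platform's annotation gives it that gene symbol and no other. All 10 genes were found, with 31 of the 45037 probe sets tested. The members were chosen by gene name with the difference between the groups already known. Probe sets of Sln, Slc24a2 and Trpm7 had been among those with the lowest p on the higher side. The differences of the members are therefore given as a description, with their standard errors and without a p.

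Arrays of 2 groups were compared, 3 labelled PR-M expressing and 3 labelled PR-M non-expressing. PR-M is a human progesterone receptor of the mitochondrion, and the series describes the mice as transgenic for it. Mice of both groups had received 2.5 mg of progesterone in oil under the skin for 19 to 21 days, so the hormone was common to all arrays. RNA came from the apex of the ventricles and was read on Affymetrix mouse arrays. The labels give no strain, age or sex, nor the promoter of the transgene, nor how the non-expressing group was made. Nor do they state that each sample is a different animal. Errors and p-values therefore measure the spread between these samples, which may be technical, and 3 arrays in a group limit the precision.

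At each heartbeat calcium enters the cell through voltage-gated channels and opens the ryanodine receptor, which releases far more calcium from the sarcoplasmic reticulum. Relaxation follows as the pump SERCA, made from Atp2a2, returns calcium to the store and the sodium-calcium exchanger, made from Slc8a1, expels the rest. Phospholamban and sarcolipin each bind the pump in the membrane and slow it. In the mouse heart phospholamban is the main inhibitor of the ventricle, whereas sarcolipin belongs mainly to the atria. Calsequestrin 2, triadin and the histidine-rich calcium binding protein hold calcium in the store and tie it to the release channel.

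Values are on a log2 scale, so a difference of 1 is a doubling, and each difference is expressing minus non-expressing. Array medians lay between 5.77 and 5.78, and the highest value on any array was 14.77. Levels of different probe sets are not comparable, since each binds with its own strength. The sample titles carry 3 prefixes, 1 in the expressing group and 2 in the non-expressing group, where replicate 1 has a prefix of its own. No prefix held both groups, so prefix and group cannot be told apart. Some technical measures differed along with the groups. The control signal for 18S rRNA was lower with PR-M (8.31 ± 0.22, against 9.88 ± 0.38 without; SD, n = 3 each), and an exact two-sided permutation test gave p = 0.1, the lowest value possible with these group sizes. For beta-actin, the 3′ probe set exceeded the 5′ one by 1.23 ± 0.05 with PR-M and by 1.38 ± 0.07 without, again with separate groups (exact permutation p = 0.1). For Gapdh this excess was 0.17 ± 0.06 with PR-M against 0.25 ± 0.07, with overlap (exact permutation p = 0.3). The average of 6 fibroblast markers was 10.79 to 11.03 with PR-M and 10.59 to 10.62 without. Of these, 4 (Col3a1, Pdgfra, Dcn and Postn) did not overlap, against 19.0% of all genes, and 0 passed over all genes. The average of 5 endothelial markers was 9.22 to 9.26 against 9.02 to 9.12, where only Pecam1 did not overlap and 0 passed. Blood and immune markers averaged 6.63 to 7.03 and 6.76 to 7.40, with overlap. The part of these measures in the results on the calcium genes was not tested. The 8 cardiac muscle markers, among them Myh6, Tnnt2 and Actc1, averaged 14.00 to 14.03 with PR-M and 13.97 to 14.03 without. The ventricular markers averaged 10.543 to 10.61 and 10.42 to 10.541, with Myl2 and Myl3 near the top of the scale in every array and Hey2 below every array median. Of these 7 markers, 2 did not overlap, Mylk3 higher and Myl3 lower with PR-M, against 19.0% of all genes, and 0 passed over all genes.

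The members fell into a few probe sets with a large difference and many with a small one. Sln, Slc24a2 and Trpm7 each had 1 probe set that was more than 1 log2 unit higher in the expressing arrays. The other 28 probe sets differed by -0.24 to 0.58, with a median of 0.09. Differences above 0 were found in 20 of the 31 member probe sets and in 44.4% of all probe sets. The median difference was 0.10 over the members and -0.02 over all probe sets.

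**Figure D1:**
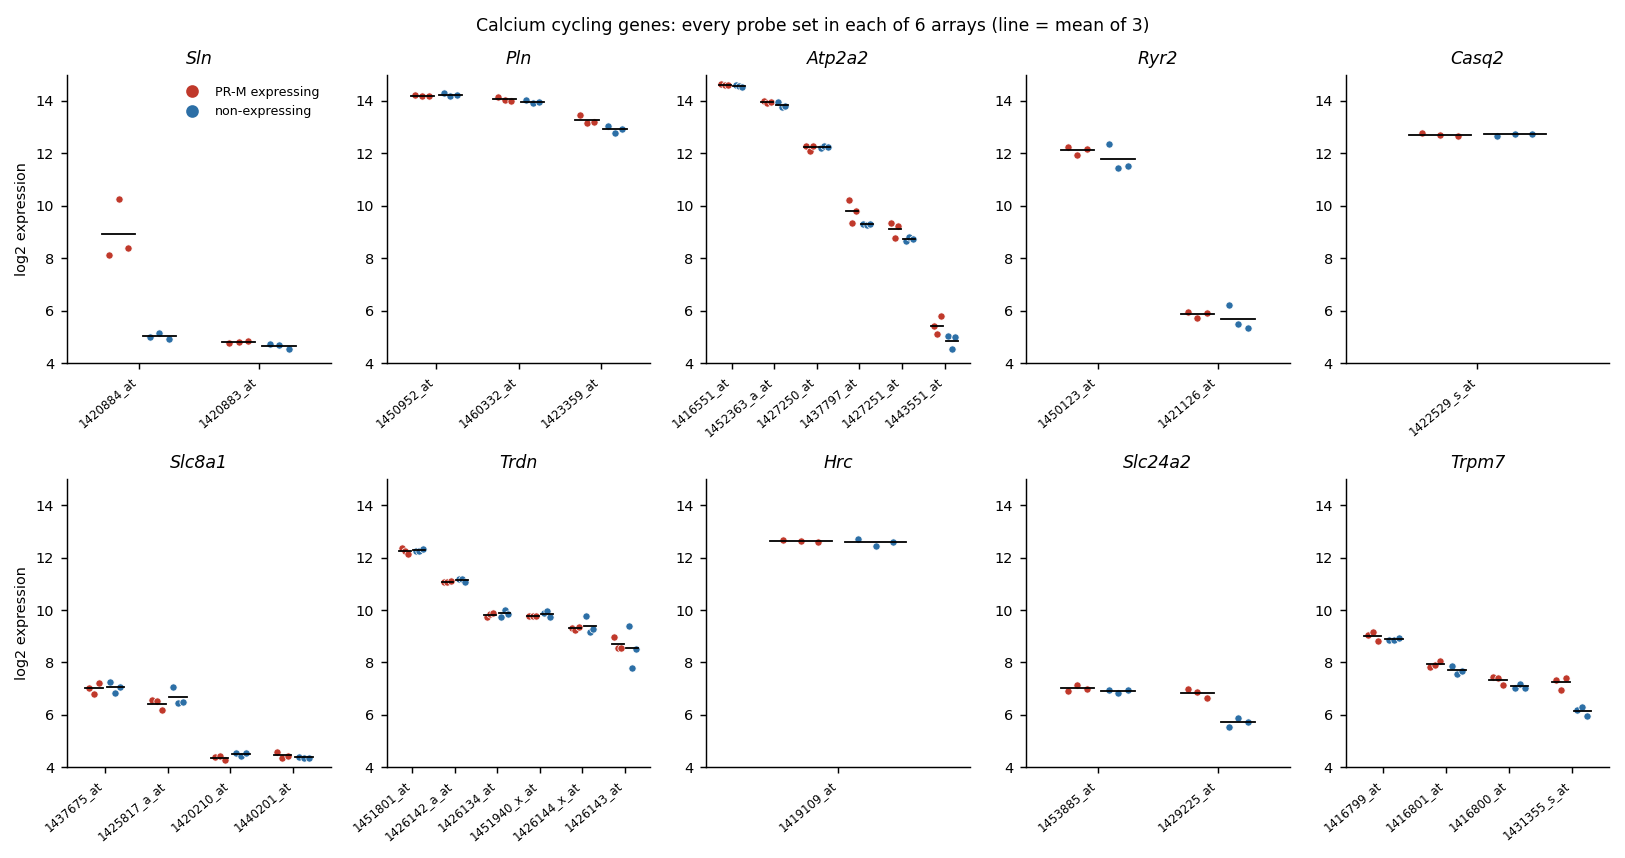
Log2 expression (y axis) of every member probe set (x axis, 1 panel per gene) in the 3 PR-M expressing arrays (red) and the 3 non-expressing arrays (blue), with a line at each mean. Sln 1420884_at, Slc24a2 1429225_at and Trpm7 1431355_s_at stand apart between the groups, whereas the brightest Pln and Atp2a2 probe sets lie above 14 in both.

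In limma, 0 of the 31 member probe sets had an adjusted p under 0.05 over all probe sets, where 6 of 45037 (0.0133%) did. At an unadjusted p under 0.05 there were 8 of 31, all higher in the expressing arrays, against 12.2% of all probe sets. With each gene represented by its brightest probe set, 1 of 10 members passed, which was Sln, against 0.0660% of 18193 genes. Without expressing replicate 3, or without any 1 of the non-expressing arrays, the count was 0. The groups did not overlap in 8 of the 31 member probe sets, 7 of them higher and 1 lower in the expressing arrays. Over all probe sets 18.6% did not overlap, and in 8.27% the expressing arrays were the higher. Since the members were proposed from this contrast, nothing is read from these counts.

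Sln had the largest positive difference of any probe set on the array. Its probe set 1420884_at read 8.14, 10.24 and 8.38 in the expressing arrays and 4.99, 5.17 and 4.94 in the non-expressing arrays. The groups were far apart, with 2.97 between the lowest expressing and the highest non-expressing array. The mean was 8.92 ± 1.15 against 5.03 ± 0.12 (SD, n = 3 each), a difference of 3.89 (SE 0.46). All 3 non-expressing values lay below their array medians, so no fold is given. Expressing replicate 2 was the highest, 1.98 above the mean of replicates 1 and 3. Without it the difference was 3.23. In bulk tissue more cells that express a gene and more RNA per cell cannot be told apart.

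The other Sln probe set, 1420883_at, was dim in every array. It read 4.75, 4.80 and 4.83 with PR-M and 4.73, 4.70 and 4.53 without. The groups did not overlap, but the difference of 0.14 (SE 0.08) was small. The differences of the Sln probe sets were thus 3.74 apart. The mean of both probe sets differed by 2.01 (SE 0.25). The large difference in Sln was read by 1 of its 2 probe sets.

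The 5 genes with the values most like Sln were taken from 605 probe sets with 1 gene symbol and a range of at least 1 log2 unit. They were Cacna2d2, an auxiliary subunit gene of voltage-gated calcium channels (r = 0.997), the atrial myosin light chain genes Myl4 (r = 0.995) and Myl7 (r = 0.991), Prg4, which encodes the lubricating protein lubricin (r = 0.989), and the matrix protein gene Abi3bp (r = 0.981). These are Pearson correlations over 6 arrays that form 2 separate groups, so the group difference sets most of their size. Without expressing replicates 2 and 3, the arrays farthest from the median of Sln, they were 0.975 to 0.990 over the 4 arrays left, where the single expressing array sets the value. Myl4 read 9.99, 11.72 and 9.96 in the expressing arrays and 6.57, 7.28 and 7.01 in the non-expressing arrays. Prg4 read 6.70, 7.48 and 7.08 against 5.85, 5.80 and 5.64. Since the 5 genes were picked for their likeness to Sln, the order of the arrays they share with it is not a result.

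**Figure D2:**
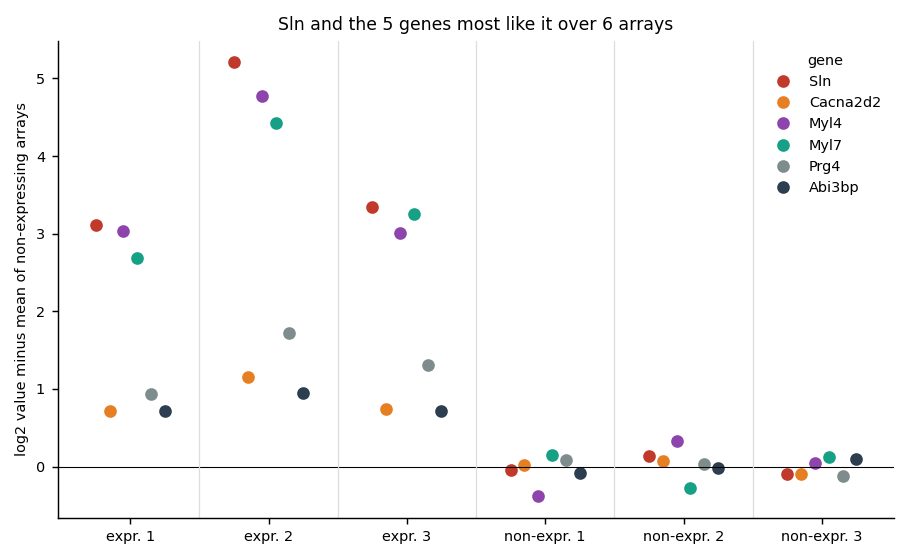
Log2 value of Sln (1420884_at) and of the 5 genes most like it, minus the gene's mean over the non-expressing arrays (y axis), in each array (x axis, 3 expressing and 3 non-expressing, genes offset for clarity). In the expressing arrays Sln, Myl4 and Myl7 lie well above Prg4, Cacna2d2 and Abi3bp, which were chosen for likeness of pattern and not of size.

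Markers of other muscle were read beside Sln. Of 10 listed atrial markers other than Sln, 9 were measured, with a mean level of 8.11 to 8.86 with PR-M and 7.33 to 7.63 without. The groups did not overlap in 4 of the 9, against 19.0% of all genes. The expressing arrays were the higher in each, namely Myl4, Myl7, Dkk3 and Tbx5. Of these, Myl4 and Myl7 passed over all genes (limma adjusted p = 0.0451 and 0.0348), where 0.0660% of genes did. Over all probe sets neither did (limma adjusted p = 0.0628 and 0.0554). The markers were listed with earlier results of these data known, so these p-values are not independent support. The mean difference of the 9 was 1.03 and the median 0.30. The groups overlapped for Nppa, which encodes atrial natriuretic peptide (difference 1.02), and for Kcnj3 (0.30). Bmp10, Kcna5 and Nr2f2 had differences of -0.03, -0.10 and -0.09. None of the 9 was below every array median, and 7 were above it in every array. The exceptions were Bmp10, at 5.59 to 5.82, and Dkk3, at 5.62 in non-expressing replicate 3. The part of atrial muscle in the Sln result was not tested. Skeletal muscle also makes sarcolipin. The average of its 12 markers was 5.43 to 5.52 with PR-M against 5.59 to 5.66. However, the groups overlapped in 10 of the 12 and 0 passed over all genes. They did not overlap in 2 of the 12, against 19.0% of all genes. Of the 12, 7, among them Myh1, Myh4 and Actn3, were below every array median.

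Pln, the closest relative of Sln in function, was bright in both groups. Its brightest probe set, 1450952_at, read 14.21, 14.16 and 14.18 in the expressing arrays and 14.29, 14.20 and 14.22 in the non-expressing arrays. The groups overlapped, and the difference was -0.05 (SE 0.07). The probe set 1460332_at also overlapped, with a difference of 0.10 (SE 0.08). Both probe sets lie near the highest value of 14.77 on any array, where a difference may be compressed, which was not tested.

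The third Pln probe set, 1423359_at, did separate the groups. It read 13.46, 13.15 and 13.19 in the expressing arrays and 13.05, 12.79 and 12.92 in the non-expressing arrays. Its difference was 0.35 (SE 0.11), or 1.27-fold, and the nearest arrays of the groups were 0.11 apart. The differences of the 3 Pln probe sets thus ran from -0.05 to 0.35, and the 1 below 0 was smaller than its SE. Correlations between them over the 6 arrays ran from -0.15 to 0.96. The mean of all 3 differed by 0.13 (SE 0.07).

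Atp2a2, the pump gene, was read by 6 probe sets, of which 3 differed by 0.12 or less. The probe set 1416551_at, which lies close to the highest value of 14.77 on any array, read 14.64, 14.58 and 14.60 in the expressing arrays and 14.61, 14.56 and 14.54 in the non-expressing arrays, a difference of 0.04 (SE 0.07). The probe set 1452363_a_at differed by 0.12 (SE 0.08) and 1427250_at by -0.0014 (SE 0.08), and both overlapped. In these 3 probe sets the groups could not be separated. For 1416551_at, near the top of the scale, a difference may be compressed, which was not tested.

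The 3 remaining Atp2a2 probe sets were higher in the expressing group. The probe set 1437797_at read 10.22, 9.36 and 9.81 in the expressing arrays and 9.31, 9.26 and 9.29 in the non-expressing arrays. The groups did not overlap, although expressing replicate 2 lay only 0.05 above the highest non-expressing array, and the difference was 0.51 (SE 0.18), or 0.30 without expressing replicate 1. The probe set 1427251_at read 9.33, 8.78 and 9.22 against 8.67, 8.82 and 8.73 and overlapped through expressing replicate 2, with a difference of 0.37 (SE 0.14). The dim 1443551_at read 5.40, 5.11 and 5.78 against 5.02, 4.54 and 4.995, without overlap, with a difference of 0.58 (SE 0.19). Averaged over its 6 probe sets, Atp2a2 differed by 0.27 (SE 0.10). In all 6 Atp2a2 probe sets expressing replicate 2 was the lowest of the expressing arrays, the reverse of its place for Sln. Whether these probe sets read the same transcripts as the other 3 is not given in the sources used here.

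**Figure D3:**
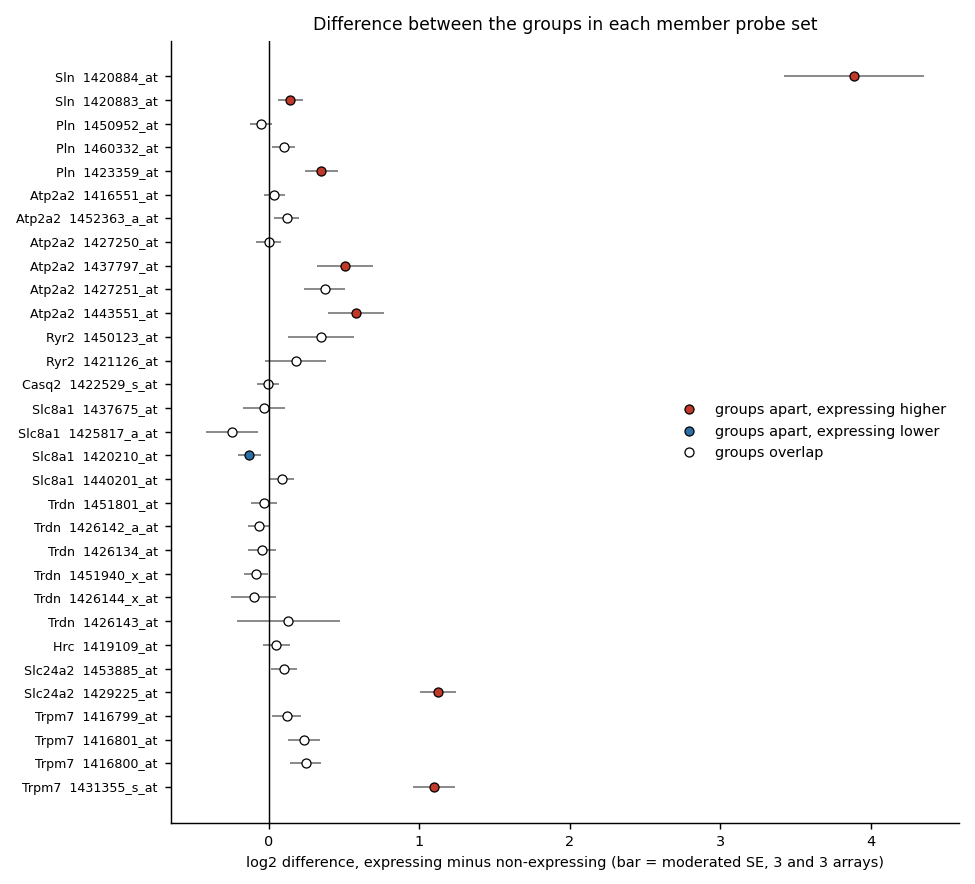
Log2 difference between the groups (x axis, expressing minus non-expressing, bars of 1 moderated SE, 3 and 3 arrays) for the 31 member probe sets (y axis). Filled points mark probe sets whose groups do not overlap. Sln 1420884_at lies at 3.89, Slc24a2 1429225_at at 1.12 and Trpm7 1431355_s_at at 1.10, and the rest lie between -0.24 and 0.58.

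Ryr2, which encodes the cardiac ryanodine receptor, varied more within the non-expressing group than between the groups. Its brighter probe set, 1450123_at, read 12.23, 11.94 and 12.18 in the expressing arrays and 12.34, 11.44 and 11.52 in the non-expressing arrays. Non-expressing replicate 1 was the highest of all 6 arrays and lay 0.86 above the mean of replicates 2 and 3. The difference of 0.35 (SE 0.22) was smaller than the SD of 0.50 in the non-expressing group. The dim probe set 1421126_at repeated this order, at 5.93, 5.73 and 5.92 against 6.21, 5.48 and 5.35, and the correlation of the 2 probe sets over the 6 arrays was 0.96. Without non-expressing replicate 1, the array with its own title prefix, the differences were 0.64 and 0.45. The comparison of Ryr2 between the groups thus depends on that array.

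Trdn, which encodes triadin, had 6 probe sets, and every one overlapped between the groups. Their differences ran from -0.10 to 0.13, with 5 below 0. The brightest, 1451801_at, read 12.36, 12.26 and 12.12 in the expressing arrays and 12.25, 12.27 and 12.33 in the non-expressing arrays. The probe set 1426143_at had the largest spread of the members within the non-expressing group, at 9.41, 7.78 and 8.51 in the non-expressing arrays against 8.96, 8.56 and 8.56 in the expressing arrays. Here too non-expressing replicate 1 was the highest, 1.27 above the mean of replicates 2 and 3, and without it the difference was 0.55 in place of 0.13. In 1426144_x_at, whose suffix marks probes that may bind other sequences, it was 0.56 above. Correlations between Trdn probe sets over the 6 arrays ran from -0.93 to 0.89, so they did not read as a single level.

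Casq2 is the calsequestrin gene of the heart. Its 1 probe set read 12.76, 12.70 and 12.67 in the expressing arrays and 12.66, 12.74 and 12.75 in the non-expressing arrays, a difference of -0.01 (SE 0.07). Hrc, whose product binds calcium in the store and acts on both pump and release channel, read 12.67, 12.63 and 12.60 against 12.71, 12.43 and 12.61, a difference of 0.05 (SE 0.09). For both genes the groups overlapped and the difference was below its standard error.

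Slc8a1, the sodium-calcium exchanger gene, showed no common direction in 4 probe sets. The brightest, 1437675_at, read 7.02, 6.81 and 7.23 in the expressing arrays and 7.26, 6.84 and 7.05 in the non-expressing arrays, a difference of -0.03 (SE 0.14). The probe set 1425817_a_at read 6.56, 6.53 and 6.18 against 7.05, 6.44 and 6.51, a difference of -0.24 (SE 0.17). Non-expressing replicate 1 was again the highest of all arrays in both, and without it the second difference was -0.05. The other 2 probe sets were below every array median, with differences of -0.13 (SE 0.08) and 0.09 (SE 0.08). The first of these, 1420210_at, was the only member probe set in which every expressing array was lower than every non-expressing array.

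**Figure D4:**
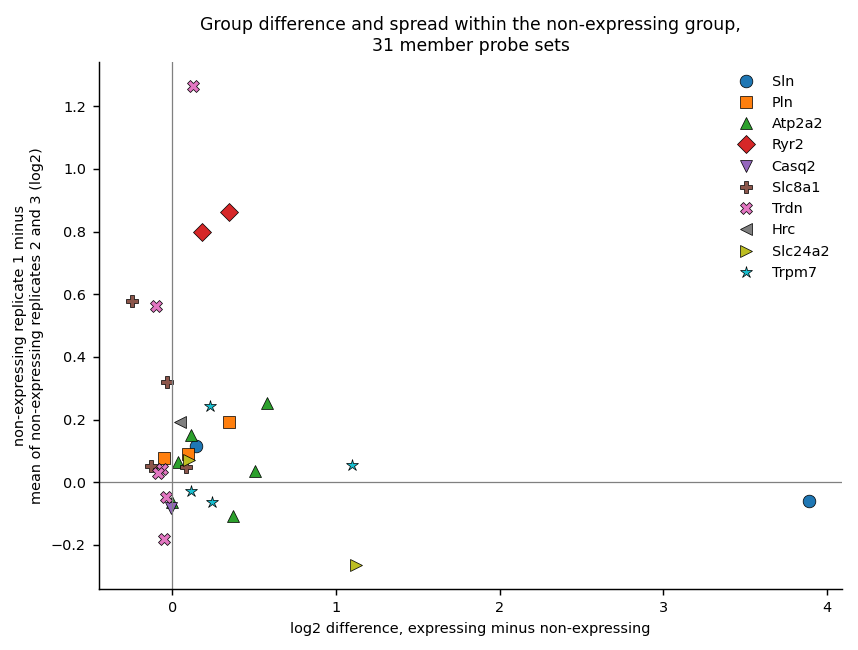
Group difference (x axis, log2, expressing minus non-expressing) against the distance of non-expressing replicate 1 from the mean of replicates 2 and 3 (y axis, log2) for the 31 member probe sets, marked by gene. Both Ryr2 probe sets, 2 of Trdn and 1 of Slc8a1 lie above 0.5 on the y axis, whereas the 3 probe sets with a group difference over 1 lie between -0.26 and 0.05.

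Non-expressing replicate 1 differed by more than 0.5 from the mean of replicates 2 and 3 in 5 of the 31 member probe sets, and in 4.09% of all probe sets. It was the highest non-expressing array in 18 of the 31, and in 38.4% of all probe sets. For Sln 1420884_at the distance was -0.06, for Slc24a2 1429225_at -0.26 and for Trpm7 1431355_s_at 0.05. Without that array these 3 differences were 3.87, 1.03 and 1.12.

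Slc24a2 encodes an exchanger that moves calcium with sodium and potassium and is known mainly from neurons. Its probe set 1429225_at read 7.00, 6.87 and 6.66 in the expressing arrays and 5.55, 5.90 and 5.72 in the non-expressing arrays. The groups were 0.76 apart at their nearest arrays, and the spread was alike in both. The difference was 1.12 (SE 0.12). Non-expressing replicates 1 and 3 lay below the array medians, so no fold is given. The other probe set, 1453885_at, read 6.92, 7.13 and 7.00 against 6.96, 6.83 and 6.95 and overlapped, with a difference of 0.10 (SE 0.09). The differences of the 2 probe sets were 1.02 apart. The mean of both probe sets differed by 0.61 (SE 0.07), and their correlation over the 6 arrays was 0.45.

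Neuronal markers were read beside Slc24a2. The 9 measured of 10 listed averaged 4.80 to 4.89 with PR-M and 4.88 to 5.16 without, and 6 of them, Snap25 and Tubb3 included, were below every array median. In 2 of the 9 the groups did not overlap, against 19.0% of all genes, and 0 passed. Both were lower with PR-M, Snap25 by -0.28 and Stmn2 by -0.33. Of 7 Schwann cell markers 4 were measured, and they averaged 7.03 to 7.11 against 6.70 to 6.91, with a difference of 0.88 for Mbp and of 0.05, 0.0042 and 0.01 for Sox10, S100b and Cnp. The groups did not overlap for Mbp and Sox10, 2 of the 4, against 19.0% of all genes, and 0 of the 4 passed over all genes. The part of Schwann cells in the Slc24a2 result was not tested.

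Trpm7 encodes a channel for magnesium, calcium and zinc that carries a kinase domain. Its probe set 1431355_s_at, whose suffix marks probes shared by more than 1 transcript, read 7.35, 6.97 and 7.42 in the expressing arrays and 6.18, 6.30 and 5.96 in the non-expressing arrays. The groups were 0.67 apart at their nearest arrays, and the difference was 1.10 (SE 0.14), or 2.14-fold. The other 3 probe sets were also higher on average, but each overlapped. Their differences were 0.12 (SE 0.10) for 1416799_at, 0.23 (SE 0.11) for 1416801_at and 0.25 (SE 0.10) for 1416800_at. The brightest of them, 1416799_at, read 9.06, 9.15 and 8.81 against 8.87, 8.87 and 8.93. All 4 Trpm7 probe sets were thus higher on average, by 0.12 to 1.10, and their mean differed by 0.42 (SE 0.06).

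The wider calcium cycle was described with 100 other genes in 7 lists by role, of which 88 were measured by a probe set of their own. In limma 0 of the 88 passed over all genes, where 0.0660% of genes did. At an unadjusted p under 0.05 there were 5 higher and 3 lower, against 11.4% of all genes. The groups did not overlap in 12 of the 88, against 19.0% of all genes. The median difference was 0.01, beside -0.02 over all genes. Over all 204 probe sets of these genes 0 passed, and 19 had an unadjusted p under 0.05, against 12.2% of all probe sets. These 88 genes thus held no call by this test.

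Voltage-gated calcium channels held the largest differences among these genes, in both directions. Of 14 genes 0 passed, and the median was 0.11. Cacna2d2 read 6.81, 7.25 and 6.83 with PR-M and 6.12, 6.17 and 6.01 without it, and the groups were separate. Its difference was 0.87 (SE 0.12, adjusted p = 0.0736). Its other 2 probe sets were dim and lower in the expressing arrays, with differences of -0.17 and -0.08, and averaging its probe sets gave 0.21 (adjusted p = 0.368, in a range of 0.0406 to 0.368 over the alternatives). Cacna1h, a T-type channel gene, read below every array median, at 4.75, 4.75 and 4.74 against 4.38, 4.42 and 4.33, with a difference of 0.37 (SE 0.07, adjusted p = 0.166). Its other probe set differed by -0.05, and averaging both gave 0.16. Rrad, which encodes a small GTPase that restrains the L-type channel, was named after its values were seen. It had the largest negative difference, -0.74 (SE 0.25, adjusted p = 0.352), with overlapping groups.

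**Figure D5:**
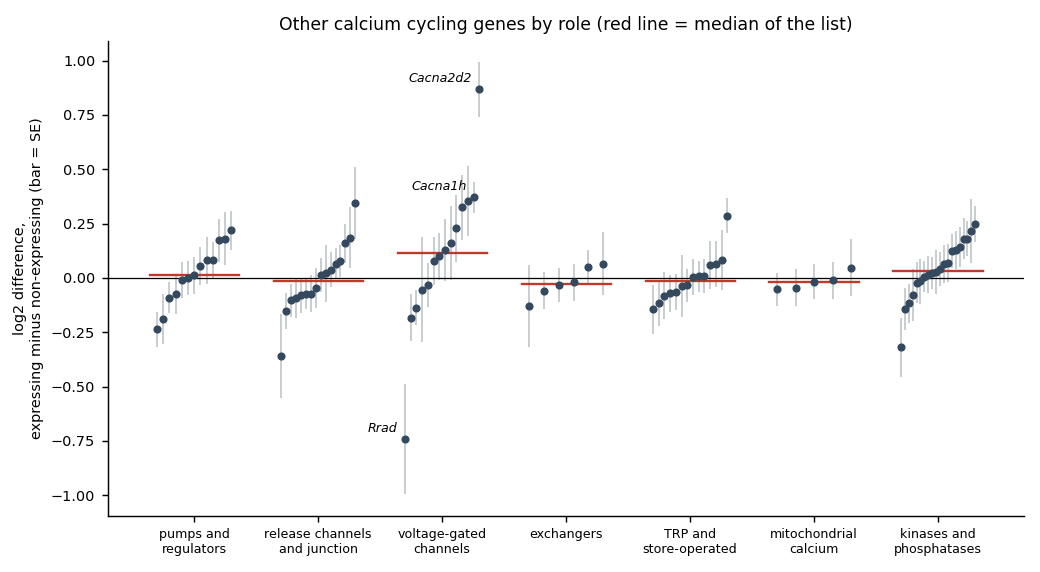
Log2 difference between the groups (y axis, expressing minus non-expressing, bars of 1 SE) for 88 other calcium cycling genes in 7 lists by role (x axis), with the median of each list in red. Cacna2d2 at 0.87 and Rrad at -0.74 lie outside the range of the other genes, which is -0.36 to 0.37, and no gene passed over all genes.

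Other pumps and pump regulators showed small differences. Of 13 genes 0 passed, with a median of 0.01 and a range of -0.24 to 0.22. Hax1, whose product binds phospholamban, differed by -0.24 (SE 0.08, adjusted p = 0.352) and Atp2a3, another pump gene, by 0.22 (SE 0.09, adjusted p = 0.409). The other Hax1 probe set differed by 0.068, the opposite sign, and averaging the probe sets of Atp2a3 gave 0.14. Among 16 genes of release channels and their junction 0 passed, and the median was -0.02. Itpr2, a receptor gene for inositol trisphosphate, differed by 0.35 (SE 0.17, adjusted p = 0.466) and Casq1, the calsequestrin gene of skeletal muscle, by -0.36 (SE 0.19, adjusted p = 0.513). Both overlapped between the groups. The 6 probe sets of Itpr2 differed by -0.23 to 0.35, and averaging them gave 0.12. Without non-expressing replicate 1 the difference of Casq1 was -0.13.

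Relatives of Slc24a2 and Trpm7 were read next. Of 6 other exchanger genes 0 passed, with a range of -0.13 to 0.07. Slc24a4 differed by -0.06 (SE 0.08, adjusted p = 0.825) and Slc24a1 by -0.13 (SE 0.19, adjusted p = 0.828), or 0.044 without non-expressing replicate 1. Of 14 other TRP and store-operated channel genes 0 passed, with a range of -0.14 to 0.29. Trpm4, which encodes a cation channel opened by calcium, differed by 0.29 (SE 0.08, adjusted p = 0.309) without overlap, and Trpc6 by -0.14 (SE 0.11, adjusted p = 0.650). Slc24a1 and Trpc6 read below every array median.

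The lists of mitochondrial calcium uptake and of kinases, phosphatases and their anchors had medians of -0.02 and 0.03. Of 5 mitochondrial genes 0 passed, with a range of -0.05 to 0.05. Smdt1 and Mcu, which encode parts of the uniporter, differed by -0.05 (SE 0.07, adjusted p = 0.821) and -0.05 (SE 0.08, adjusted p = 0.872). Of 20 genes of kinases, phosphatases and their anchors 0 passed, with a median of 0.03. Prkacb, a catalytic subunit gene of protein kinase A, differed by 0.25 (SE 0.08, adjusted p = 0.349), while averaging its probe sets gave -0.11. Ppp1r1a, an inhibitor gene of protein phosphatase 1, differed by -0.32 (SE 0.14, adjusted p = 0.428), or -0.48 without non-expressing replicate 1. All adjusted p are from limma with the Benjamini-Hochberg method over 18193 genes.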

How the data were processed

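Each of the 6 arrays has 1 deposited log2 value for every probe set. RMA and Partek 6.6 are named in the submitters' processing notes, without role or order. Their settings were not stated in what was used here, and the scale was inferred from the range. The authors' scaling made the array distributions nearly equal, so a change common to all genes would not show. Of 45101 probe sets, 64 controls were left out, and 34945 of the rest have 1 gene symbol in the platform's annotation. Groups follow the labels, and replicates are numbered in record order.

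Groups were compared by the lmFit and eBayes steps of limma 3.58.1 under R 4.3.3, two-sided, over 45037 probe sets. P-values were adjusted by Benjamini and Hochberg over all probe sets and, from the same fit, over the brightest probe set of each of 18193 genes. SE is the moderated standard error (4.48 prior and 4 residual degrees of freedom). The fit was run on simulated data with independent noise and no prefix effect, so that run cannot speak to the title prefix. Members and gene lists were chosen with earlier results of these data known. The text describes every member and names from each list the genes that passed or, where 0 did, the 2 with the lowest p. Likeness to Sln is Pearson's r.

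Alternatives changed the filter for dim values, the scaling (3 ways), the prior, the weights of arrays, the handling of the title prefix (as a block, with statmod 1.5.0), the choice of probe sets per gene and the threshold, or left out an array.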

Additional observations from a re-analysis of the deposited data

How the results depend on the processing

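The count of member probe sets past the threshold, 0, became 3 without dim probe sets, with array weights and at an adjusted p under 0.1 (Sln, Slc24a2 and Trpm7 each time), and 2 with an intensity trend and robust prior (Slc24a2 and Trpm7). Leaving out 1 array gave 0 to 2, with Sln and Trpm7 passing without expressing replicate 2, Slc24a2 without non-expressing replicate 1, and 0 otherwise. The count of member genes, 1, became 0 with the trend and robust prior, the title prefix as a random block, ordinary statistics, no _x_at or _s_at probe sets, averaging a gene's probe sets, and, chosen after seeing the data, a prior estimated from the genes alone. Leaving out 1 array gave 0 to 1, with 0 in 4 cases (expressing replicate 3 and each non-expressing replicate). Of the other calcium cycling genes 1, Cacna2d2, passed with the trend and robust prior, with array weights and at 0.1, and 1 of their probe sets passed at 0.1. The adjusted p of Cacna2d2 ran from 0.0406 to 0.368. The difference was 0.068 for Hax1 without _x_at and _s_at probe sets, 0.044 for Slc24a1 without non-expressing replicate 1 (-0.36 to 0.044 over the arrays left out) and -0.11 for Prkacb as the mean of its probe sets, each with the sign turned. The cause was not tested. No member difference moved by more than 1 SD in the fits over probe sets. Leaving out 1 of the 3 arrays of a group cannot move a difference that far, so nothing is read from this. In 23 of the 31 the sign held throughout, and the 8 others changed sign in at least 1 fit. Leaving out 1 array, Sln stayed at 3.23 to 4.28, Slc24a2 1429225_at at 1.03 to 1.21 and Trpm7 1431355_s_at at 1.00 to 1.24. No paired analysis was possible because the labels tie no sample of a group to one of the other. With 3 arrays in a group, small differences can be missed, and probe sets below the array medians may read background. Probe sets near the highest value may show less of a difference than there is.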
